A study of Homo sapiens with 12 samples.

Results

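The 41 genes described here make heme, break it down or move it, take up, store, sense or export iron, or build iron-sulfur clusters. They were chosen as a list of names by function, and no measured value enters the rule, although earlier results of these data were known when the list was proposed: 10 heme synthesis genes, 5 genes of heme breakdown and export, 11 of iron uptake, reduction and export, 5 of iron storage and chaperoning, 3 of iron sensing and 7 of iron-sulfur clusters. All 41 matched an identifier among the 85298 in the deposited table, and 38 passed the filter on low counts. TFR2, a transferrin receptor paralogue, HFE, a partner of the transferrin receptor, and HEPH, a ferroxidase, did not pass, and each stayed below 1 CPM (counts relative to the library total, scaled by TMM) in every library.

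The cells were HEK 293T, a human embryonic kidney line, and RNA with poly(A) tails was sequenced. SIDT2, the target of the knockdown, is a lysosomal membrane protein known for moving RNA into lysosomes. All 3 groups received a lentivirus with polybrene and were collected 72 h later: a scramble shRNA as control, SIDT2 shRNA-B, or SIDT2 shRNA-D, with 4 libraries each and totals between 68737402 and 102644699 estimated counts. An untransduced group was not analysed here, so what transduction itself does is shared by all groups.

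Heme is made from glycine and succinyl-CoA by a chain of enzymes that starts and ends in mitochondria, and its last step inserts ferrous iron into protoporphyrin. Cells take up iron mainly as transferrin through the transferrin receptor, hold what they do not use in ferritin, and export it through ferroportin. Iron regulatory proteins, encoded by ACO1 and IREB2, bind hairpins called iron-responsive elements when iron is scarce. Binding in a 5′ UTR blocks translation, and binding in the 3′ UTR of the transferrin receptor mRNA protects that mRNA. Iron-sulfur clusters are assembled on the scaffold ISCU with sulfur from NFS1 and passed on by carrier proteins such as GLRX5, ISCA1 and ISCA2.

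The hairpin cores below are shown because they tie 4 members to the sensing system. The mRNA levels of all 4 are given in the results. The motif was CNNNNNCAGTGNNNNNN, with the 5 bases before and after the CAGTGN loop required to pair at all 5 positions (G with T allowed), searched on the transcript strand of UTRs in GENCODE v29 transcripts (GRCh38). Each line gives the 17-base core with 6 bases on either side, 5′ to 3′, and the capitals mark the loop.
FTH1, 5′ UTR: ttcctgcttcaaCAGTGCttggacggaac
FTL, 5′ UTR: ctcttgcttcaaCAGTGTttggacggaac
SLC40A1, 5′ UTR: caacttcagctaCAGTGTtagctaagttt
TFRC, 3′ UTR, core 1: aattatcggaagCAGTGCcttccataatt
TFRC, 3′ UTR, core 2: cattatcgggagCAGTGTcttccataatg
TFRC, 3′ UTR, core 3: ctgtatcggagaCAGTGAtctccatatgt
TFRC, 3′ UTR, core 4: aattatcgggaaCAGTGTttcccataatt

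The core lay in 5 of 6 coding transcripts of FTH1 and in the single ones searched for FTL and SLC40A1, where it spanned bases 41 to 57 and 205 to 221 of the transcript. In TFRC, the 4 cores were held by all 3 coding transcripts and began at bases 3097, 3501, 3566 and 3613 of one that is 4814 bases long. A match was found in 4 of the 41 members (9.76%), against 159 of 19666 genes searched (0.809%), whose UTRs differ in length. The pattern is that of the known element and the members were listed by iron function. The higher share was therefore set in advance and is not a test. A match describes these letters only. No match to this pattern was found in SLC11A2, and its transcripts were not searched for other forms of the element.

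The knockdown target was low in every knockdown library. SIDT2 held 21.7, 20.5, 18.3 and 19.7 CPM in scramble libraries 1 to 4, 6.61, 8.27, 5.77 and 6.75 with shRNA-B and 5.47, 7.20, 7.58 and 7.55 with shRNA-D. All p-values come from the quasi-likelihood test in edgeR, adjusted over all tested genes by the method of Benjamini and Hochberg. SIDT2 fell by 1.55 ± 0.14 on the log2 scale (fitted value ± SE) with shRNA-B (adjusted p = 0.000146) and by 1.53 ± 0.14 with shRNA-D (adjusted p = 0.000515, edgeR). Genes are called changed at an adjusted p under 0.05, first in a model of group alone and then in one that also holds the replicate number. Replicate numbers 1 to 4 recur in every group, and same-numbered libraries deviated together from their group means. The labels do not say what a number shares, and each p-value reflects only how these libraries vary.

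Few members changed, and the clearest 2 changed with 1 hairpin and not with the other. In the model of group alone, 0 members rose and 2 fell with shRNA-B, FECH and ISCA1, where 0.247% of all tested genes rose and 0.63% fell. With shRNA-D 0 members rose and 0 fell, where 0.0721% of tested genes rose and 0.197% fell; 1 of 38 members had an unadjusted p under 0.05, where 4.66% of all tested genes did, and DESeq2 called 0. For the mean of both hairpins 0 rose and 1 fell, FECH, against 0.125% and 0.106% of tested genes. Between the hairpins, 2 were higher with shRNA-D, FECH and ISCA1, and 0 were lower, against 0.467% and 0.485%. Scaling by library totals alone changed the split of all called genes from 19 higher and 52 lower to 31 and 49 for shRNA-D, and from 123 and 128 to 185 and 107 between the hairpins.

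With the replicate number in the model more members passed, as did more genes of every kind. With shRNA-B 3 rose (ALAS1, PPOX and NFS1) and 7 fell (FECH, TFRC, STEAP1, SLC40A1, IREB2, ISCA1 and CISD1), against 4.04% of tested genes higher and 5.54% lower. With shRNA-D 0 rose and 2 fell (TFRC and SLC11A2), against 1.05% and 2.26%. For the mean 1 rose (PPOX) and 5 fell (FECH, TFRC, STEAP1, SLC40A1 and ISCA1), against 1.62% and 3.45%. Between hairpins 4 were higher with shRNA-D (FECH, STEAP1, ISCA1 and CISD1) and 5 lower (ALAS1, UROS, SLC11A2, FBXL5 and NFS1), against 5.91% and 6.95%. Abundant genes pass more often: at a mean of at least 10 CPM, 22.2% of 36 members and 17.5% of 10459 tested genes were called with shRNA-B. In all, 13 members passed in at least 1 contrast and model and 25 in none. The pooled share over all tested genes was not counted, so these totals only sort the members for the account below.

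The members did not share a direction against scramble. Their median log2 change was 0.03 with shRNA-B, where the median over all tested genes was 0.00. Of the 38, 21 were above 0, against 50.1% of all genes. With shRNA-D the median was -0.04 against -0.01 over all genes, and 12 of 38 were above 0, against 48.2%. With library totals alone as scaling this median turned to 0.02, against 0.05 over all genes, with 21 above 0. Between hairpins the median was -0.07 against -0.005 over all genes, and 13 of 38 were above 0, against 49.3%. Under the other scalings the members' median between hairpins lay from -0.06 to -0.01, against 0.008 to 0.05 over all genes. The plot of changes by role shows FECH and ISCA1 apart from the rest.

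**Figure D1:**
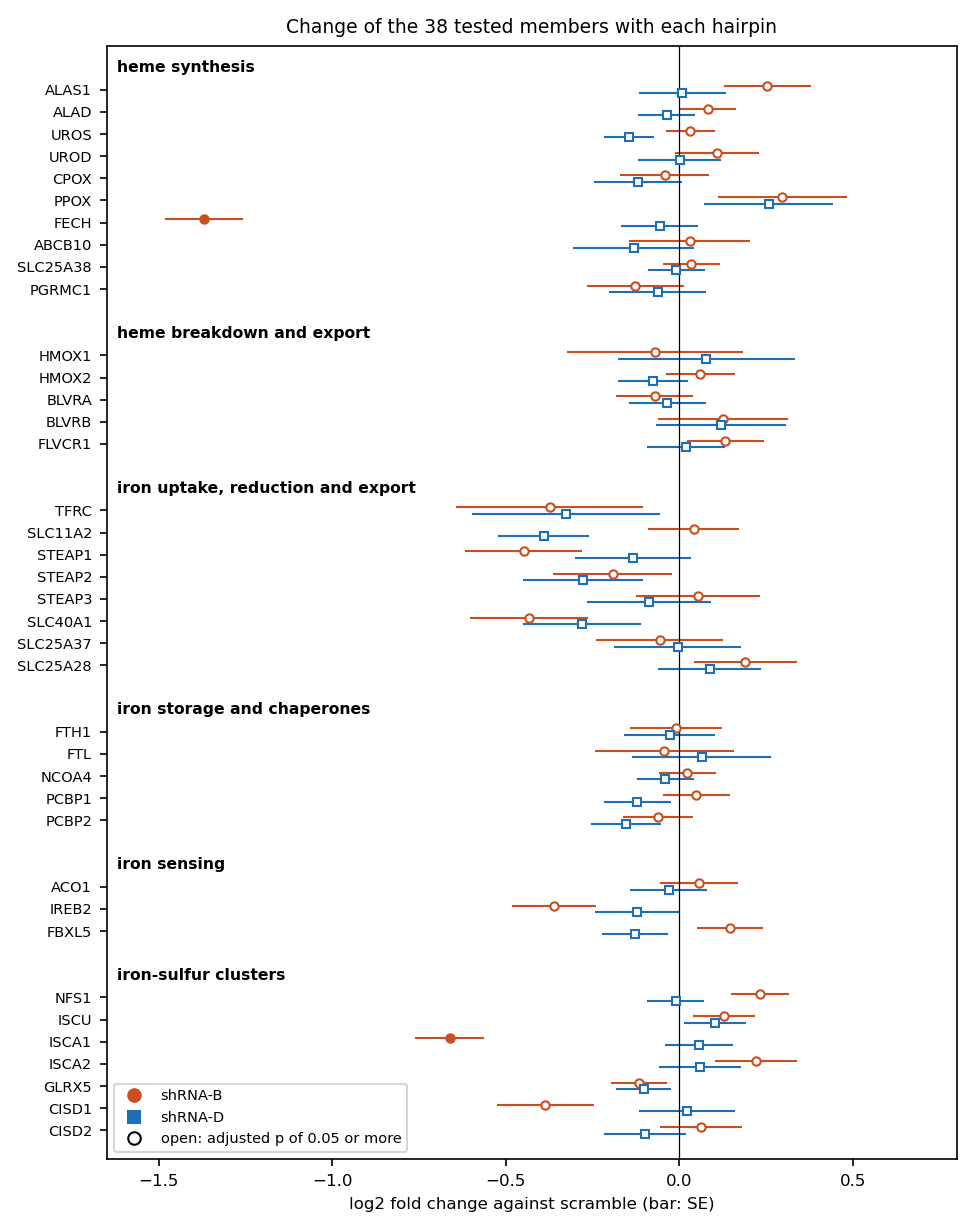
Fitted log2 fold change against scramble (x axis, bars are SE) for the 38 tested members, grouped by role, with shRNA-B as circles and shRNA-D as squares, from the model of group alone. Filled marks have an adjusted p under 0.05: FECH at -1.37 and ISCA1 at -0.66 with shRNA-B, and none with shRNA-D.

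Among the heme synthesis genes, FECH (ENSG00000066926), the ferrochelatase that inserts iron into protoporphyrin, showed the largest fitted change of the 38 members with shRNA-B. It held 45.2, 51.0, 54.5 and 46.1 CPM in scramble libraries 1 to 4 (49.2 ± 4.37, SD, n = 4). With shRNA-B it held 15.3, 21.7, 20.1 and 19.0 CPM (19.0 ± 2.72), and with shRNA-D 44.0, 50.9, 48.1 and 46.1 CPM (47.3 ± 2.94). All 4 shRNA-B libraries lay below every other library, while scramble and shRNA-D overlapped. In edgeR's test FECH fell by 1.37 ± 0.11 on the log2 scale with shRNA-B (adjusted p = 6.34e-05), which took its mean to 0.387 of that in scramble. With shRNA-D its log2 change was -0.06 ± 0.11, with a 95% interval from -0.30 to 0.18 (adjusted p = 1.0, edgeR). The difference between the hairpins was itself past the threshold, at 1.31 ± 0.11 (adjusted p = 0.000107, edgeR). SIDT2 did not separate the hairpins: shRNA-D minus shRNA-B was 0.02 ± 0.14 on the log2 scale, with a 95% interval from -0.28 to 0.32.

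**Figure D2:**
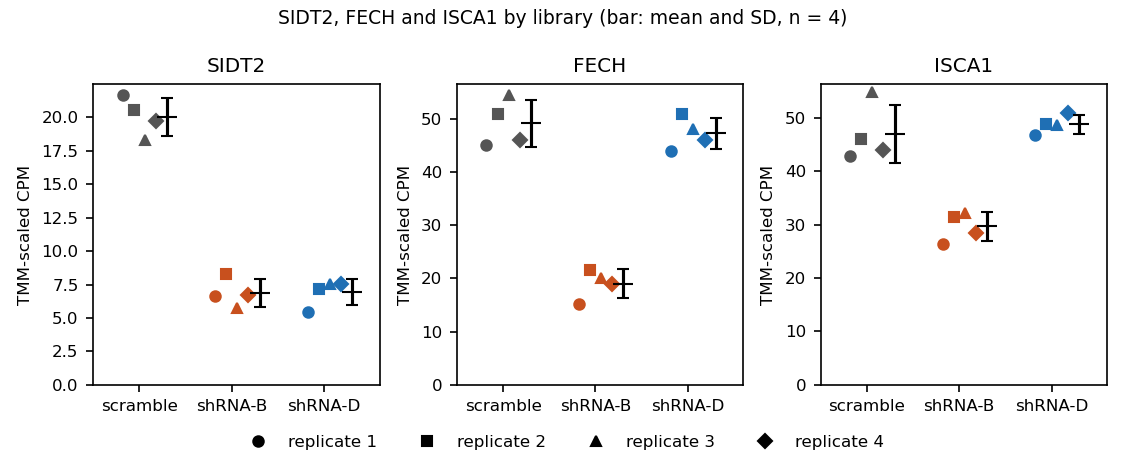
TMM-scaled CPM (y axis, from 0) of SIDT2, FECH and ISCA1 in each of the 12 libraries by group, with a mark per replicate number and the mean and SD of each group (n = 4). SIDT2 was lower with both hairpins, while FECH and ISCA1 were lower with shRNA-B and overlapped scramble with shRNA-D.

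Ahead of ferrochelatase, ALAS1 makes 5-aminolevulinate in the rate-limiting step outside red cells. ALAS1 held 57.6, 56.7, 52.2 and 44.5 CPM in scramble libraries 1 to 4, 69.9, 71.6, 60.7 and 49.4 with shRNA-B, and 57.0, 55.9, 52.2 and 47.2 with shRNA-D. Each shRNA-B library was above the scramble library of its number, although the groups overlapped. ALAS1 rose by 0.25 ± 0.06 on the log2 scale with the replicate number in the model (adjusted p = 0.0122, edgeR) and stood at 0.25 ± 0.13 without it (adjusted p = 0.69). The call was lost without scramble replicate 2 or shRNA-B replicate 1, where the adjusted p was up to 0.0608. Between hairpins it was lower with shRNA-D by 0.23 in the same model (log2 -0.23 ± 0.06, adjusted p = 0.0135, edgeR), a call lost without shRNA-B replicate 1 or 3 or shRNA-D replicate 1, 2 or 3 (adjusted p up to 0.109) and with no filter on low counts (0.0522).

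PPOX, the enzyme before ferrochelatase, oxidises protoporphyrinogen to protoporphyrin. It held 10.6, 15.4, 14.2 and 15.7 CPM in scramble, 12.2, 20.3, 19.0 and 16.9 with shRNA-B, and 12.1, 18.3, 19.1 and 17.1 with shRNA-D. Both hairpins exceeded the scramble library of the same number in 4 of 4 pairs, and the groups overlapped because number 1 was low in all of them. With the replicate number in the model PPOX rose by 0.29 ± 0.07 with shRNA-B (adjusted p = 0.0149, edgeR) and by 0.27 ± 0.06 for the mean of both hairpins (adjusted p = 0.0169). With shRNA-D alone it was 0.25 ± 0.07 and missed the threshold (adjusted p = 0.0636, edgeR). The shRNA-B call was lost without scramble replicate 2 or 3 or shRNA-B replicate 3 (adjusted p from 0.0654 to 0.0719), and the call for the mean without scramble replicate 2 or 3 (0.0758 and 0.102).

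UROS, which closes the tetrapyrrole ring, held 60.3, 60.6, 62.2 and 63.0 CPM in scramble, 62.7, 65.8, 63.9 and 59.2 with shRNA-B, and 53.5, 57.0, 54.6 and 57.4 with shRNA-D. The shRNA-D libraries lay below all the others. Its log2 difference between hairpins, -0.18 ± 0.05, passed with the replicate number (adjusted p = 0.043, edgeR), but not without any 1 library other than shRNA-B replicate 4 (adjusted p from 0.072 to 0.247), nor under any other scaling (0.0709 to 0.185). The other 6 heme synthesis genes were never called: ALAD, UROD and CPOX, enzymes of the middle of the chain, the mitochondrial transporters ABCB10 and SLC25A38, and the heme-binding PGRMC1. Their log2 changes without the replicate number lay between -0.13 (PGRMC1) and 0.11 (UROD) with shRNA-B and between -0.13 (ABCB10) and 0.00 (UROD) with shRNA-D.

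None of the 5 genes of heme breakdown and export passed with either model. HMOX1 and HMOX2 open the heme ring, BLVRA and BLVRB reduce its products, and FLVCR1 is known as a heme exporter and choline transporter. FLVCR1 had the smallest p of the group with shRNA-B and held 36.1, 48.9, 50.4 and 45.3 CPM in scramble against 44.7, 51.1, 51.2 and 51.1, with 40.1, 49.1, 46.9 and 47.1 for shRNA-D. Its log2 change with shRNA-B was 0.13 ± 0.11 (adjusted p = 0.934, edgeR). HMOX2, with the smallest p for shRNA-D, held 35.4, 27.9, 32.0 and 33.6 CPM in scramble, 34.8, 32.8, 35.1 and 31.6 with shRNA-B and 34.7, 28.3, 28.2 and 31.1 with shRNA-D (log2 change -0.08 ± 0.10). HMOX1, the form induced by heme and oxidative stress, changed by -0.07 ± 0.25 and 0.08 ± 0.25. The 95% intervals reach from -0.62 to 0.48 and from -0.47 to 0.63, the widest among the heme genes named here.

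Of the genes for iron uptake, reduction and export, TFRC was lower than its same-numbered scramble library in all 8 pairs. TFRC, the transferrin receptor, held 202, 363, 409 and 305 CPM in scramble libraries 1 to 4, 144, 284, 319 and 239 with shRNA-B and 155, 278, 309 and 278 with shRNA-D. The groups overlapped because the numbers differ: number 1 was lowest and number 3 highest in each group. With the replicate number in the model TFRC fell by 0.39 ± 0.06 on the log2 scale with shRNA-B (adjusted p = 0.00121, edgeR) and by 0.33 ± 0.06 with shRNA-D (adjusted p = 0.00843). Without the number the values were -0.37 ± 0.27 and -0.33 ± 0.27 (adjusted p = 0.915 and 1.0, edgeR). The shRNA-B call and that for the mean held in all 12 single omissions, and the shRNA-D call was lost without scramble replicate 1 or shRNA-D replicate 1, 2 or 3 (adjusted p from 0.0545 to 0.0666). Both contrasts use the same scramble libraries.

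SLC11A2 (DMT1), which carries ferrous iron across membranes, separated the hairpins in the opposite sense to FECH. It held 49.1, 62.2, 63.7 and 59.1 CPM in scramble, 51.7, 64.6, 65.9 and 58.9 with shRNA-B and 33.9, 47.9, 48.5 and 48.5 with shRNA-D. The shRNA-D libraries lay below every library of the other groups. With the replicate number SLC11A2 fell by 0.40 ± 0.06 with shRNA-D (adjusted p = 0.0016, edgeR) and stood at 0.04 ± 0.06 with shRNA-B. The hairpins differed by -0.44 ± 0.06 (shRNA-D minus shRNA-B, adjusted p = 0.000322, edgeR), and both calls held in all 12 single omissions. Without the number the change with shRNA-D was -0.39 ± 0.13 (adjusted p = 0.601, edgeR).

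STEAP1, of a family of metalloreductases that act on iron and copper, held 6.13, 6.27, 7.78 and 6.08 CPM in scramble. It held 4.60, 3.67, 6.15 and 4.85 CPM with shRNA-B and 5.96, 5.13, 6.91 and 5.96 with shRNA-D. With the replicate number STEAP1 fell by 0.46 ± 0.09 with shRNA-B (adjusted p = 0.00471, edgeR), a call that held in all 12 single omissions. For the mean of both hairpins it fell by 0.30 ± 0.08 (adjusted p = 0.0376, edgeR), a call kept only without shRNA-B replicate 2 or 3 (otherwise up to 0.194) and lost with library totals as scaling (0.0566), and the hairpins differed by 0.33 ± 0.09 (shRNA-D higher, adjusted p = 0.0268), a call lost without shRNA-B replicate 1 or shRNA-D replicate 1, 2 or 4 (up to 0.086). STEAP2 and STEAP3, from the same family, were not called.

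SLC40A1, or ferroportin, the iron exporter, held 4.07, 3.48, 3.92 and 3.58 CPM in scramble, 3.24, 2.24, 3.34 and 2.32 with shRNA-B and 3.08, 3.31, 3.35 and 2.66 with shRNA-D. Every library of either hairpin lay below every scramble library. SLC40A1 fell by 0.45 ± 0.11 with shRNA-B when the number was in the model (adjusted p = 0.0243, edgeR), and the call was lost without scramble replicate 1 or 4 or shRNA-B replicate 2 or 4 (adjusted p from 0.0634 to 0.0912). The call for the mean, a fall of 0.37 ± 0.10 (adjusted p = 0.048, edgeR), held only without shRNA-D replicate 2 (otherwise up to 0.197) and was lost under each other scaling (0.052 to 0.0798). The mitochondrial iron carriers SLC25A37 and SLC25A28 were not called, at -0.06 ± 0.18 and 0.19 ± 0.15 with shRNA-B.

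**Figure D3:**
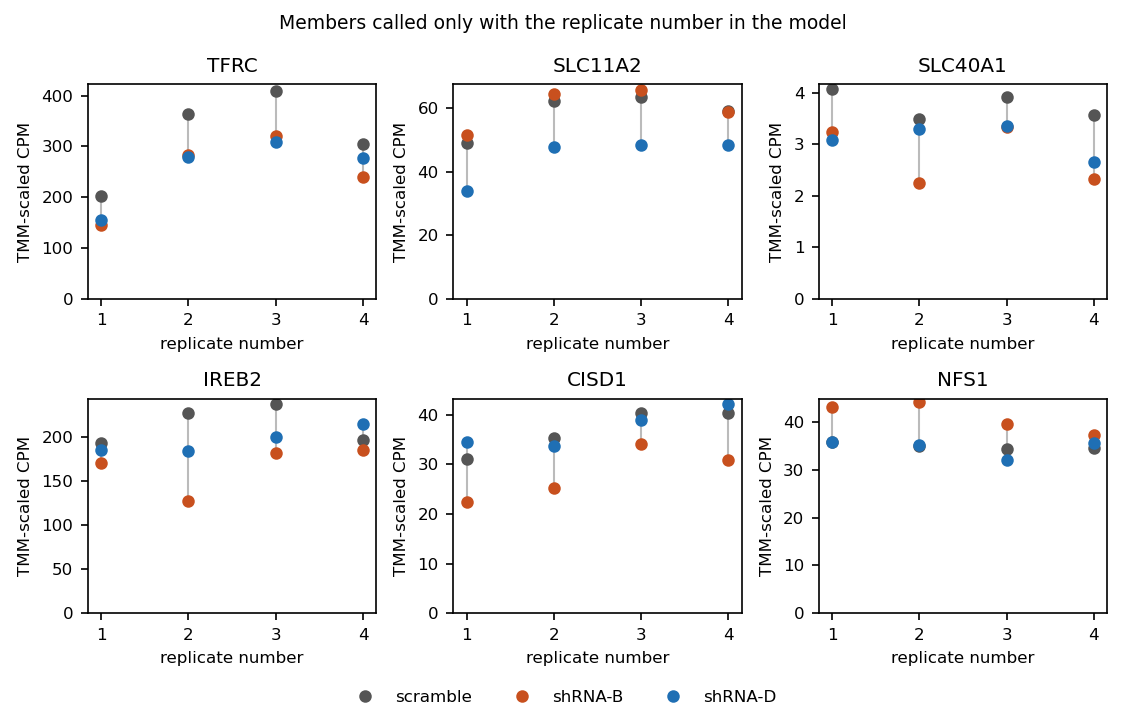
TMM-scaled CPM (y axis, from 0) against replicate number (x axis) for TFRC, SLC11A2, SLC40A1, IREB2, CISD1 and NFS1, with a colour per group and a grey line joining libraries of the same number. In TFRC both hairpins lie below scramble at each number although number 1 is low in all groups, and in SLC11A2 only the shRNA-D points lie apart.

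The 5 storage and chaperone genes did not pass in either model. FTH1 and FTL, the ferritin subunits with the 5′ UTR cores shown above, held 578 ± 74.4 and 270.4 ± 56.2 CPM in scramble (SD, n = 4). FTH1 changed by -0.01 ± 0.13 with shRNA-B and -0.03 ± 0.13 with shRNA-D on the log2 scale, and FTL by -0.04 ± 0.20 and 0.07 ± 0.20. These are mRNA levels, while ferritin protein was not measured. PCBP2, a poly(C)-binding protein that also delivers iron to ferritin, had the smallest p of the group with both hairpins. It held 669, 732, 713 and 617 CPM in scramble, 634, 767, 642 and 573 with shRNA-B and 607, 665, 604 and 580 with shRNA-D, at log2 changes of -0.06 ± 0.10 and -0.15 ± 0.10. NCOA4, which brings ferritin to lysosomes, changed by 0.02 ± 0.08 and -0.04 ± 0.08. FTH1 has 25 further copies in the identifier table, which held 0.172% as many counts as the gene, and FTL has 16 with 0.0179%.

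Of the 3 sensing genes, IREB2, which encodes iron regulatory protein 2, held 193, 227, 238 and 197 CPM in scramble, 171, 127, 182 and 185 with shRNA-B and 186, 185, 200 and 215 with shRNA-D. The shRNA-B libraries lay below every scramble library. IREB2 fell by 0.37 ± 0.10 with the number in the model (adjusted p = 0.0495, edgeR), at the edge of the threshold, and stood at -0.36 ± 0.12 without it (adjusted p = 0.333). The call was lost without scramble replicate 1, 2 or 3, shRNA-B replicate 3 or shRNA-D replicate 1 or 4 (adjusted p from 0.0521 to 0.144). FBXL5, the iron-binding subunit of the ligase that degrades that protein, held 46.1, 47.6, 46.2 and 39.7 CPM in scramble, 51.2, 47.0, 55.6 and 44.8 with shRNA-B and 40.2, 41.5, 44.7 and 38.0 with shRNA-D. Neither hairpin moved it past the threshold against scramble, but the hairpins differed by -0.27 ± 0.06 with the number (adjusted p = 0.00644, edgeR), a call lost without shRNA-D replicate 1 (adjusted p = 0.0576). ACO1, which serves as iron regulatory protein 1 when it lacks its cluster, was not called.

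Among the iron-sulfur genes, ISCA1, a late-acting mitochondrial carrier for 4Fe-4S clusters, followed the pattern of FECH. It held 42.8, 46.0, 54.8 and 44.0 CPM in scramble (46.9 ± 5.43, SD, n = 4), 26.4, 31.5, 32.2 and 28.4 with shRNA-B (29.6 ± 2.71) and 46.7, 48.8, 48.6 and 50.9 with shRNA-D (48.8 ± 1.72). The shRNA-B libraries lay below all others. ISCA1 fell by 0.66 ± 0.10 on the log2 scale with shRNA-B (adjusted p = 0.00558, edgeR without the number), and its change with shRNA-D was 0.06 ± 0.10, with a 95% interval from -0.16 to 0.27. The hairpins differed by 0.72 ± 0.10 (adjusted p = 0.00365, edgeR). For the mean of both hairpins it passed in edgeR only with the number (-0.30 ± 0.06, adjusted p = 0.00665), and not without scramble replicate 3 (adjusted p = 0.0509). The identifier table holds 5 further ISCA1 copies, with 1.26% of the gene's counts.

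CISD1, or mitoNEET, an outer mitochondrial membrane protein with a 2Fe-2S cluster, held 31.0, 35.3, 40.4 and 40.5 CPM in scramble, 22.5, 25.2, 34.1 and 30.9 with shRNA-B and 34.5, 33.7, 38.9 and 42.2 with shRNA-D. In each number the shRNA-B library was the lowest. CISD1 fell by 0.39 ± 0.06 with shRNA-B in the model with the number (adjusted p = 0.00175, edgeR) and differed between hairpins by 0.42 ± 0.06 (adjusted p = 0.00101), and both calls held in all 12 single omissions. NFS1, the cysteine desulfurase that supplies the sulfur, moved the other way with shRNA-B: 43.1, 44.3, 39.6 and 37.3 CPM against 35.9, 35.0, 34.4 and 34.6 in scramble and 36.0, 35.4, 32.0 and 35.6 with shRNA-D. Its shRNA-B libraries lay above all others, and NFS1 rose by 0.23 ± 0.06 (adjusted p = 0.0203, edgeR with the number). That call was lost without scramble replicate 1 or 2 or shRNA-B replicate 1 or 3 (adjusted p from 0.0806 to 0.0922), and with no filter on low counts (adjusted p = 0.0593). Between hairpins NFS1 was lower with shRNA-D by 0.24 (log2 -0.24 ± 0.06, adjusted p = 0.0131, edgeR), a call lost without shRNA-B replicate 1 or 3 or shRNA-D replicate 1, 2 or 3 (up to 0.0965).

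The scaffold ISCU, the carriers ISCA2 and GLRX5 and the CISD1 relative CISD2 were never called. GLRX5, with the smallest p of the group for shRNA-D, held 72.2, 74.2, 71.1 and 67.4 CPM in scramble, 63.3, 73.7, 64.9 and 61.0 with shRNA-B and 69.3, 66.2, 64.6 and 65.1 with shRNA-D (log2 change -0.10 ± 0.08). Across all 25 members that were never called, log2 changes ran from -0.19 (STEAP2) to 0.22 (ISCA2) with shRNA-B and from -0.28 (STEAP2) to 0.12 (BLVRB) with shRNA-D. In simulated counts of the shRNA-B comparison, 28% of genes changed 1.5-fold and 66% of genes changed 2-fold were called by group alone, and 79% and 96% with the number. Missing the threshold at sizes below these does not show that a gene stayed level. Each model was tried on counts simulated from its own fit, so the recovered shares do not compare the models. False calls, of genes left unchanged there, numbered 1 by group alone and 16 with the number. The genes changed in the simulation were drawn only from those above a floor on the mean count.

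Of 69 other genes of heme, iron and iron-sulfur metabolism, 62 were tested. By group alone 1 rose and 0 fell with each hairpin, and it was SLC39A14 (ZIP14), a zinc and iron importer, in both cases. Of all tested genes 0.247% rose and 0.63% fell with shRNA-B, and 0.0721% and 0.197% with shRNA-D. SLC39A14 held 33.3, 66.3, 57.8 and 51.3 CPM in scramble, 96.8, 118, 107 and 91.1 with shRNA-B and 96.6, 100.5, 100.8 and 90.8 with shRNA-D, with no overlap of either hairpin with scramble. It rose by 0.98 ± 0.17 with shRNA-B (adjusted p = 0.0125, edgeR) and by 0.90 ± 0.17 with shRNA-D (adjusted p = 0.0439), from scramble libraries that both contrasts share. The shRNA-D call was lost without scramble replicate 3 or 4 or any 1 shRNA-D library (adjusted p from 0.0562 to 0.0895), and fitting only the groups compared gave 0.07 and 0.0633 for the adjusted p. Between hairpins 0 of the 62 were called by group alone, where 0.467% of all tested genes were higher with shRNA-D and 0.485% lower. By sign, 24 of 28 other iron-sulfur genes were above 0 with shRNA-B (median 0.13), against 50.1% of all genes. The other heme and other iron genes had 10 of 18 and 7 of 16 above 0. Between hairpins 2 of 28 (median -0.12), 9 of 18 and 7 of 16 were above 0, against 49.3% of all genes. With shRNA-D 15 of the 28 were above 0. These signs were not tested.

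With the number in the model, 6 of the 62 rose with shRNA-B (SLC39A14, ABCB6, MCOLN1, NDUFAB1, NUBPL and CIAO2A) and 4 fell (FLVCR2, BACH1, ABCG2 and CYBRD1). Of all tested genes 4.04% rose and 5.54% fell in that contrast. The called share of the 62 was 16.1%, against 17.5% of all tested genes of at least 10 CPM, a level that not all of the 62 reach. With shRNA-D 1 rose and 0 fell, against 1.05% and 2.26% of tested genes. Between hairpins 3 were higher with shRNA-D (FLVCR2, ABCG2 and CYBRD1) and 6 lower, against 5.91% and 6.95%. BACH1, a repressor that heme releases from genes such as HMOX1, held 51.7, 67.1, 72.8 and 53.2 CPM in scramble, 32.5, 28.5, 53.3 and 43.5 with shRNA-B and 31.6, 42.3, 47.6 and 44.7 with shRNA-D. BACH1 fell by 0.65 ± 0.14 with shRNA-B (adjusted p = 0.0235, edgeR with the number), while with shRNA-D it stood at -0.56 ± 0.14 (adjusted p = 0.0856).

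More members were called for the replicate number than for either hairpin. The number term was called for 25 of 38 members (65.8%), against 47.3% of all tested genes. Among genes of at least 10 CPM the shares were 66.7% of 36 members and 65.9% of 10459 genes, so the members' share was near the background. Number 1 was the lowest of the 4 in every group for 14 members, among them TFRC, PPOX, ABCB10, SLC25A37, STEAP3, FECH and ISCA1. Number 4 was the lowest in every group for 10, among them HMOX1, FTL, FTH1, BLVRB and ALAS1. The share of all tested genes with such an order was not counted, so these counts are not read as particular to the members. TFRC deviated in number 1 by -0.67 on the log2 scale from its group means, and in number 3 by 0.39. HMOX1 deviated in number 4 by -0.63, with 7.81, 8.02 and 7.81 CPM in the 3 groups, and FTL by -0.47.

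**Figure D4:**
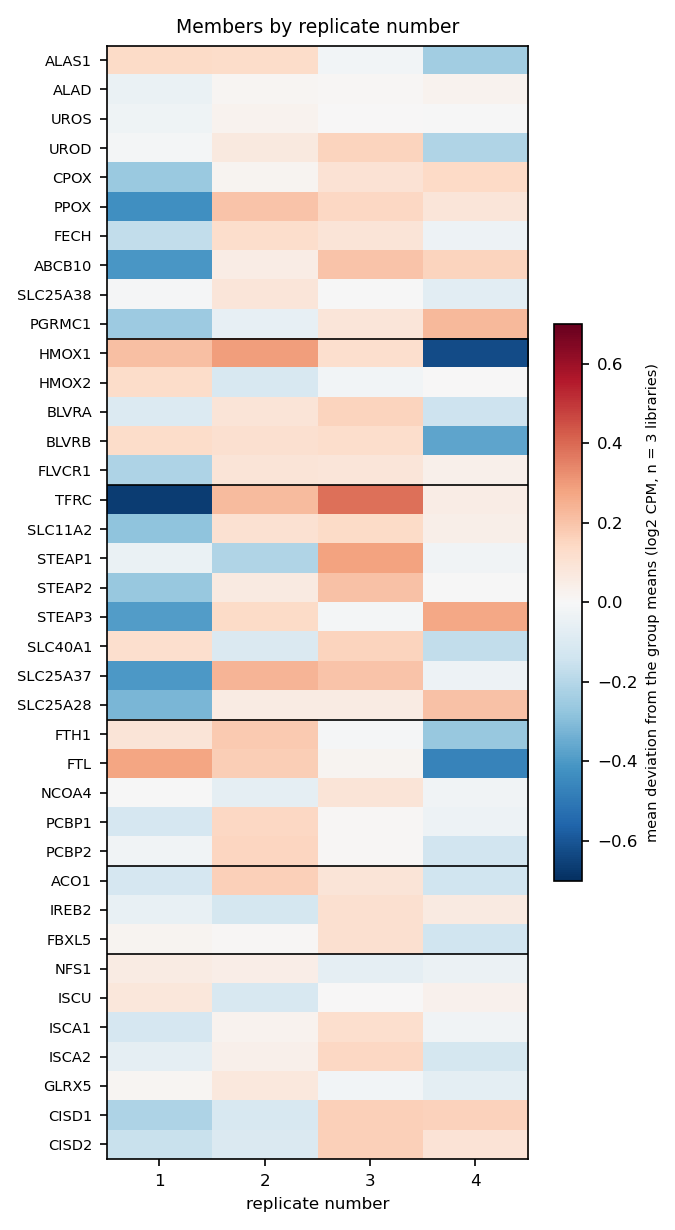
Mean deviation of each tested member from its group means (colour, log2 CPM) by replicate number (x axis), over the 3 libraries of a number, with lines between roles. TFRC at -0.67 in number 1 and HMOX1 at -0.63 in number 4 are the deepest blue cells.

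Other genes marked number 4 too. KRT8, an epithelial keratin, held 7.81, 6.13 and 7.71 CPM in the number 4 libraries of scramble, shRNA-B and shRNA-D and between 28.3 and 42.1 in the other 9, and NEFM, a neurofilament, held 105, 119 and 86.5 against 4.22 to 20.9. Both are among 7 genes that HEK 293T cells are known to express, all of which reached 1 CPM. Of 12 erythroid markers 0 reached 1 CPM: their summed level was 0.816 to 1.19 CPM in scramble, 0.731 to 1.34 with shRNA-B and 0.925 to 1.26 with shRNA-D, with EPB42 at 0. Hepatocyte (0 of 6) and macrophage (0 of 7) markers stayed below 1 CPM as well, and 2 of 6 fibroblast markers reached it.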

How the data were processed

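Poly(A) RNA was sequenced from 12 HEK 293T libraries. The authors deposited 1 table of estimated counts per gene identifier. The tools fastp and kallisto are named, per the submitters' processing notes, while their settings, the build and the annotation were not given in the sources used here. No genome coordinates are printed for that reason. Estimated counts split reads between similar transcripts, and counts from overlapping genes may not be told apart. Groups and replicate numbers came from the library titles.

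Estimated counts were rounded and scaled by TMM, and filterByExpr kept 26366 of 85298 identifiers, of which 60443 had a symbol. edgeR 4.0.16 in R 4.3.3 (glmQLFit, robust) was fitted to all 12 libraries, so that the groups shared a spread. SE values are the log2 change over the root of F. Same-numbered libraries deviated together (r from 0.140 to 0.619 over 12 pairs, against -0.365 to 0.280 over 36 pairs of different numbers), so values with the replicate number as a block are given where it changes a call. Its biological coefficient of variation was 12.1%, against 25.0% without. Tests were tried on counts simulated from each fitted model, with the calls recovered and the false calls given above.

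The members and lists were chosen with earlier results of these data known. Library values are printed for members called in any contrast, with or without the number, and for the member with the smallest p per role and hairpin. Of the other pathway genes, those called by group alone are named with values and those called only with the number are named or counted, and some are not reported here by name; values of BACH1, KRT8 and NEFM were chosen for print after they were seen. Alternatives were other scalings, no filter, DESeq2 1.42.0, only the groups compared, added processed copies and each library left out.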

Additional observations from a re-analysis of the deposited data

Results flagged for a closer look

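In 5 of 114 groups of 4 libraries, 1 library lay far from the other 3; chance flags about 1 in 20 groups, or 5.7 of 114. HMOX1 held 7.81 CPM in shRNA-D replicate 4, against 14.8 to 15.3 in the other 3, and was also lowest in number 4 of both other groups. FLVCR1 held 44.7 CPM in shRNA-B replicate 1, against 51.1 to 51.2. SLC11A2 held 33.9 CPM in shRNA-D replicate 1, against 47.9 to 48.5, and number 1 was its lowest in every group. STEAP1 held 7.78 CPM in scramble replicate 3, against 6.08 to 6.27. NFS1 held 32.0 CPM in shRNA-D replicate 3, against 35.4 to 36.0.

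For 2 members the change differed between the hairpins in edgeR's test of that difference by group alone: FECH by 1.31 and ISCA1 by 0.72 on the log2 scale (shRNA-D minus shRNA-B). The scramble libraries cancel in this difference.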

How the results depend on the processing

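The replicate block moved each count of members called: 10 against 2 for shRNA-B, 2 against 0 for shRNA-D, 6 against 1 for the mean and 9 against 2 between hairpins. Of the other pathway genes it called 10, 2 and 9 for shRNA-B, the mean and between hairpins. DESeq2 called 2 members for the mean, FECH and ISCA1 (adjusted p = 0.0337), and 2 other pathway genes each for shRNA-B and the mean. Fitting only the groups compared called 0 other pathway genes for shRNA-B and 0 for shRNA-D. Leaving out each library gave 6 to 11 members with the block for shRNA-B, 1 to 4 for shRNA-D, 2 to 6 for the mean, 4 to 9 between hairpins and 20 to 26 for the number itself, and 0 to 1 other pathway genes for shRNA-D. Of these results none changed its sign, and FECH and ISCA1 with shRNA-B and between hairpins were called in each alternative run. The median log2 change of the members with shRNA-D was -0.04 and became 0.02 with library totals alone. Over all tested genes that median went from -0.01 to 0.05 with the same switch of scaling. The cause of any change in the members was not tested. The tested member with the fewest reads, SLC40A1, held at least 197 estimated counts in each library, so the spread between libraries, more than counting error, sets the precision.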
